A study of Homo sapiens with 6 samples.

Results

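The genes described here regulate the assembly, length and tension of actin filaments. Of 56 listed genes, 55 had a row in the count and FPKM tables, out of 23406 features in all, and CYFIP1 was not analysed here. The genes were listed by function, as capping proteins, actins, subunits of the Arp2/3 and WAVE complexes, severing and monomer-binding proteins, tropomyosins, cross-linkers, myosins, membrane linkers, formins and signaling proteins. They were chosen with earlier results of these data known, and the rule itself rests on the lower level of CAPZA2 in shNXN cells, so that the group difference of CAPZA2 is given as a description without a test, and counts of differing genes were made over the other 54. The question was whether that lower level was shared by its partner CAPZB, its paralog CAPZA1 and the rest of the list.

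The cells were Hep-3B, an epithelial line from a human hepatocellular carcinoma, labelled wild type in every library. They were transduced with lentivirus for shControl, a control hairpin, or for shNXN, hairpin RNA against nucleoredoxin (NXN), selected with puromycin in both groups, and collected on days 7, 9 and 11, with 1 library for each group and day. The 3 libraries of a group served as replicates, the labels do not say whether they came from separate cultures, and p-values then cover only the spread among these libraries. The labels give neither the number of NXN hairpins behind these libraries nor the start from which the days were counted, whether transduction or the end of the week of selection. An effect of NXN loss and an off-target effect of a hairpin cannot be told apart in these libraries.

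Actin filaments grow faster at the end called the barbed end. Growth there is stopped by capping protein, a heterodimer of an alpha subunit (CAPZA1 or CAPZA2 in most tissues) and the beta subunit CAPZB. Branched networks start at the Arp2/3 complex, which is switched on by N-WASP and by the WAVE complex downstream of CDC42 and RAC1, whereas formins make straight filaments. Cofilins sever old filaments, profilins and beta-thymosins hold the monomer pool, and myosin II pulls on the filaments to shape epithelial cells and move them.

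CAPZA1 and CAPZA2 have coding sequences of equal length, as do the cofilins CFL1 and CFL2, and the pairs are shown because both alpha subunits of capping protein were lower in shNXN cells, whereas the cofilins lay on opposite sides of 0. The lines give the first 120 bases of the coding sequence of transcript 201 of each gene in GENCODE 29 (GRCh38), 5′ to 3′ from the start codon, with capitals at the bases that differ within the pair.
CAPZA1: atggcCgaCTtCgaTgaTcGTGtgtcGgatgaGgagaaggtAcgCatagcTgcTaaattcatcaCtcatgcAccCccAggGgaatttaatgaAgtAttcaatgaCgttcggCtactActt
CAPZA2: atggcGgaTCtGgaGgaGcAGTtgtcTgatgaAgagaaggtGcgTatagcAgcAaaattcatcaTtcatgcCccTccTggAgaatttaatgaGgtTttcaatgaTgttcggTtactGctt
CFL1: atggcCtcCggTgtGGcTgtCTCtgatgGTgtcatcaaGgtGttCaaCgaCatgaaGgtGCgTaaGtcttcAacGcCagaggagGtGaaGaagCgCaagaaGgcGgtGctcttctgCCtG
CFL2: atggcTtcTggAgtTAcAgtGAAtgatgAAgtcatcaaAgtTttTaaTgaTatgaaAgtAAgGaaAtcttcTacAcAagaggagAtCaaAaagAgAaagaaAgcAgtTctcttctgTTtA

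CAPZA1 lies on the plus strand at chr1:112619173-112671619 and CAPZA2 on the plus strand at chr7:116811070-116922049. Their coding sequences are both 861 bases long and have the same base at 669 positions (77.7%). The longest run they share is 20 bases, and of the 812 words of 50 bases in CAPZA2 0 occur in CAPZA1. CFL1 lies on the minus strand at chr11:65823022-65862026 and CFL2 on the minus strand at chr14:34706769-34714823. The cofilin coding sequences are 501 bases long and have the same base at 351 positions (70.06%), with a longest shared run of 11 bases and 0 of 452 shared words of 50 bases. GC makes up 37.13% of the CFL2 coding sequence and 55.09% of that of CFL1. The same share is 39.37% in CAPZA2 and 42.74% in CAPZA1.

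The estimated counts summed to 15349382 to 16332589 per library, and levels are given as CPM, counts scaled to library size, after TMM normalisation between libraries. NXN itself had 181, 138 and 143 CPM in shControl cells on days 7, 9 and 11 and 42.7, 47.5 and 39.5 CPM in shNXN cells, without overlap. All 7 hepatocyte markers were detected, with summed levels of 11113 to 21235 CPM in shControl and 4442 to 12451 CPM in shNXN libraries, but the list did not move together. Albumin (ALB), the largest part of the sum in shControl libraries, was at 1420.3, 683 and 7249.6 CPM in shNXN cells against 9566, 13655 and 6955 CPM in shControl cells on days 7, 9 and 11. AFP was lower in every shNXN library (301 to 1056 CPM, against 1083 to 1426 CPM), APOB was lower on days 7 and 9 and higher on day 11, SERPINA1 was higher in every shNXN library (1541 to 2073 CPM, against 1226 to 1387 CPM), and APOA1, TTR and FGB, like ALB and APOB, overlapped between the groups. Fibroblast markers summed to at most 8.70 CPM, smooth muscle markers to at most 2.32 CPM and endothelial markers to at most 0.0613 CPM in any library, while VWF, CD3E and DES had 0 counts in all 6. The leukocyte list summed to 57.4 to 75.6 CPM in shControl and 87.1 to 97.2 CPM in shNXN cells, nearly all of it CD68, a lysosomal protein also made by non-immune cells. The part of these marker differences in the results was not tested, and in bulk RNA a lower level per cell and fewer cells with the transcript cannot be told apart.

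CAPZA2, the alpha 2 subunit of capping protein, stood at 109.8, 100.3 and 135 CPM in shControl cells on days 7, 9 and 11, and at 22.3, 20.8 and 37.4 CPM in shNXN cells. The groups did not overlap, and the fitted ratio of shNXN to shControl was 0.234 (log2 fold change -2.10, standard error 0.26). This is the value the list was built around and it was not tested.

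CAPZA1, the alpha 1 subunit, was lower as well: 157, 152 and 223 CPM in shControl cells against 47.3, 29.6 and 122 CPM in shNXN cells. The highest shNXN library was below the lowest shControl library, and the shNXN library of day 11 was closer to the control range than those of days 7 and 9. The mean was 177 ± 39.4 CPM in shControl and 66.2 ± 48.9 CPM in shNXN cells (SD, n = 3). The log2 fold change of -1.42 (standard error 0.49) did not pass the test across all features (adjusted p = 0.107, edgeR's quasi-likelihood test). When the day was entered as a block, which pairs the libraries of a day, CAPZA1 fell by 1.65 on the log2 scale and passed (adjusted p = 0.0249, edgeR).

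CAPZB, the beta subunit that both alpha subunits bind, did not share the lower level. It had 183, 175 and 173 CPM in shControl and 201, 222 and 207 CPM in shNXN cells. All 3 shNXN libraries were above all 3 shControl libraries, by a log2 fold change of 0.25 (standard error 0.11) that did not pass the test without the block (adjusted p = 0.175) or with it (adjusted p = 0.113, edgeR both times). CAPG, a gelsolin relative that caps barbed ends alone, was at 0.37 (adjusted p = 0.208, edgeR), with groups that overlapped.

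Compared per transcript length, in FPKM, the alpha subunits together were at 176, 199.8 and 195 and CAPZB at 138, 141 and 139.6 in shControl cells on days 7, 9 and 11. The ratio of alpha to beta FPKM was therefore 1.27, 1.41 and 1.40 in shControl libraries. In shNXN cells it was 0.270, 0.146 and 1.0 on the same days. Of the 2 alpha subunits, CAPZA1 had an FPKM of 24.8, 12.6 and 108 on those days in shNXN cells, and CAPZA2 one of 24.7, 16.5 and 53.4. In FPKM the shNXN value of CAPZA1 on day 11 lay above its shControl values of 70.5, 89.9 and 87.8. In CPM it lay below them. The scales differ for CAPZA1 and for CAPZA2 as described further on.

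**Figure D1:**
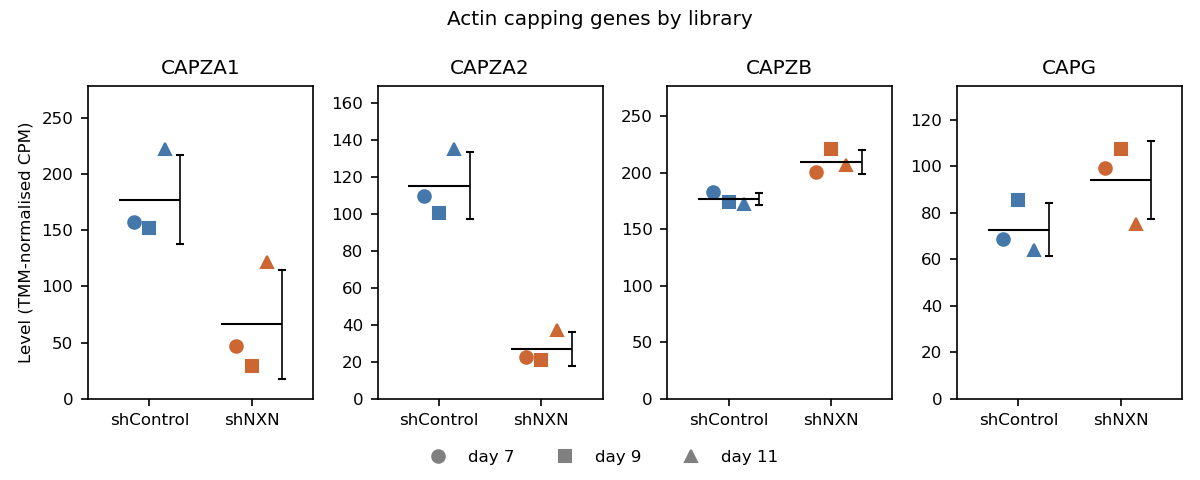
Levels of the capping genes CAPZA1, CAPZA2, CAPZB and CAPG in TMM-normalised CPM in each shControl and shNXN library; circles, squares and triangles mark days 7, 9 and 11, horizontal lines the mean and bars 1 SD of the 3 libraries. CAPZA1 and CAPZA2 sit lower in every shNXN library (29.6 to 122 and 20.8 to 37.4 CPM), CAPZB sits slightly higher (201 to 222 CPM), and CAPG overlaps between the groups.

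Beyond CAPZA2, 2 of the 54 other genes, NCKAP1 and CFL2, had an adjusted p under 0.05 without the block, both lower in shNXN cells. That is 3.70% of them, beside 3.21% of the 14071 tested features that were called lower and 0.185% that were called higher, so the share called lower was close to that of all features. With the replicate block 12 of the 54 were lower (22.2%, beside 17.0% of all tested features) and 5 were higher (9.26%, beside 6.28%). The shNXN libraries all lay below the shControl libraries for 13 of the 54 (24.1%, beside 21.5% of features) and above them for 12 (22.2%, beside 19.0%). The median log2 fold change of the 54 was 0.14, and that of all tested features 0.03. Of all 55 genes 40% had a negative log2 fold change, beside 48.6% of tested features. The counts depended on single libraries: without the block, 0 of the 54 were called when the shControl library of day 7 or day 11 or the shNXN library of day 7 or day 9 was left out (0 features were called in each of these fits), 1 without the shControl library of day 9 (1.73% of all features were called in that fit), and 13 (24.1%) without the shNXN library of day 11 (25.8% of all features).

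**Figure D2:**
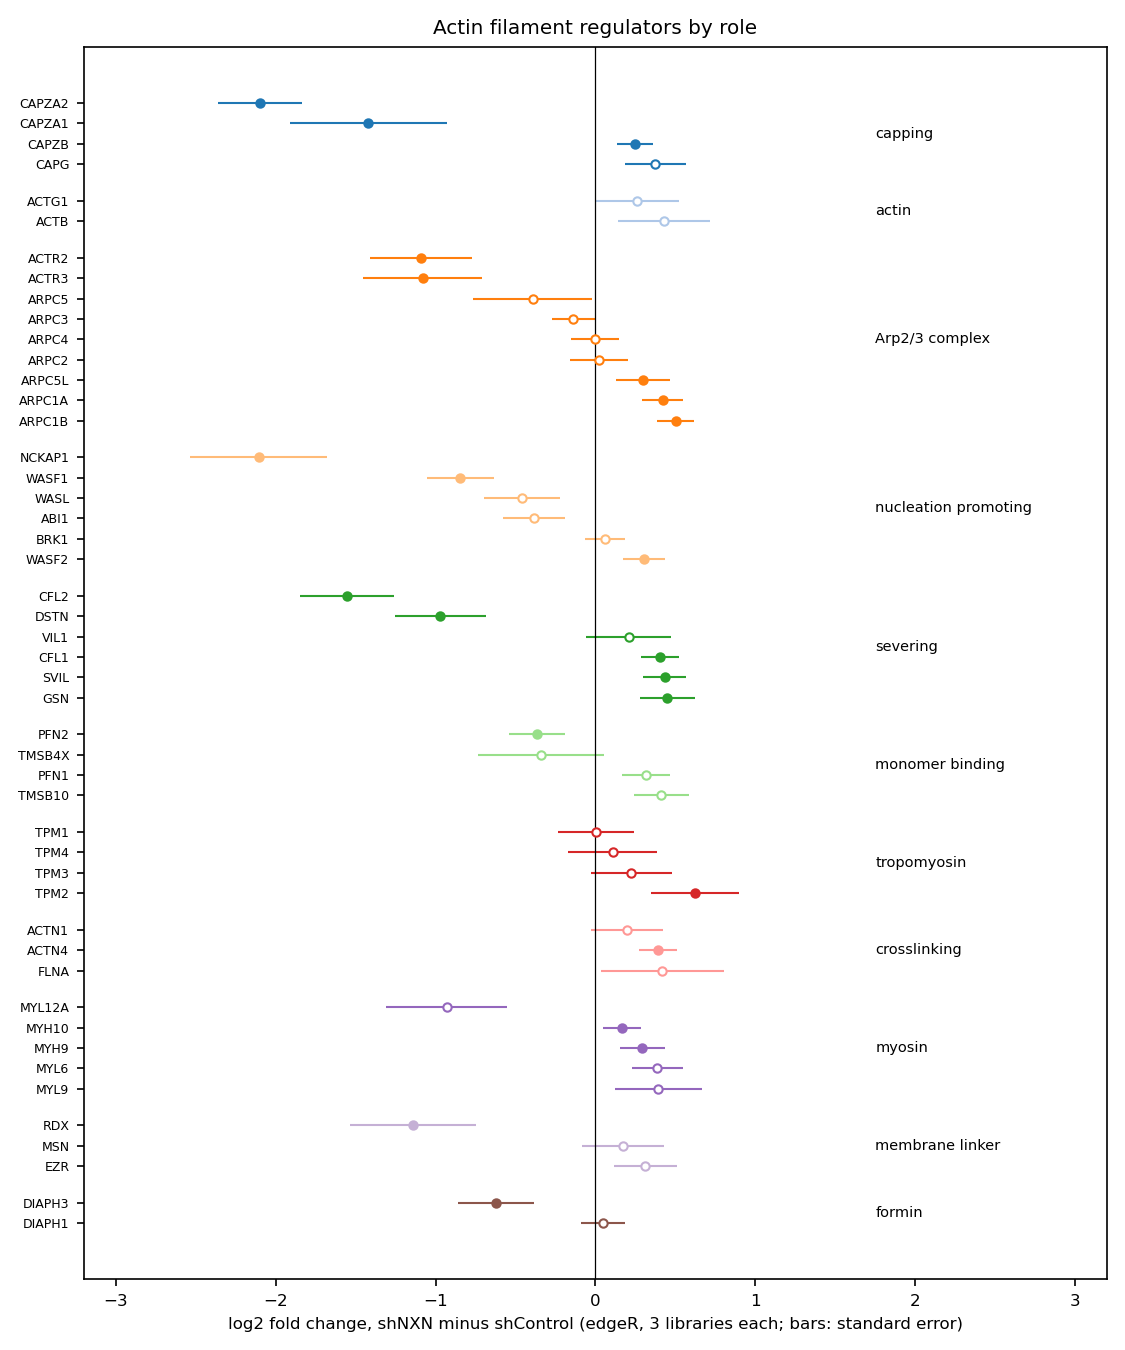
log2 fold change, shNXN minus shControl, of the genes described by role, from edgeR without the block; bars are standard errors and filled points mark genes whose shControl and shNXN libraries do not overlap. The values run from -2.11 for NCKAP1 to 0.62 for TPM2, and most roles hold genes on both sides of 0.

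The cytoplasmic actins were, with TMSB10 and PFN1, the most abundant of the 55 transcripts by FPKM. ACTB, beta-actin, had 5035, 2740.5 and 5992 CPM in shControl and 6145, 5149.8 and 7270.2 CPM in shNXN cells. The log2 fold change was 0.43 (adjusted p = 0.315, edgeR; standard error 0.29). ACTG1, gamma-actin, had 2594, 1738 and 3686 CPM against 3388, 2785 and 3416 CPM, a log2 fold change of 0.26 (adjusted p = 0.504, edgeR). The groups overlapped for both genes, and the shControl library of day 9 was the lowest of the 6 in each case.

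The Arp2/3 complex nucleates a new filament on the side of an old one, through 2 actin-related proteins, ACTR2 (Arp2) and ACTR3 (Arp3), held by the ARPC subunits. The actin-related proteins and the scaffold did not move together. ACTR2 had 423, 433 and 626 CPM in shControl and 182, 164 and 349 CPM in shNXN cells, without overlap, and its log2 fold change of -1.09 (standard error 0.32) passed only with the block (adjusted p = 0.0791 without and 0.0147 with it, edgeR). ACTR3 behaved likewise at -1.08, with adjusted p = 0.106 without the block and 0.022 with it (edgeR). ARPC1B and ARPC1A, alternative forms of the propeller-shaped subunit, were on the other side. ARPC1B had 153, 159.7 and 167 CPM in shControl and 215, 241 and 223 CPM in shNXN cells, and its log2 fold change of 0.50 (standard error 0.12) passed with the block (adjusted p = 0.0289) but not without it (adjusted p = 0.0599, edgeR). ARPC1A was at 0.42, with adjusted p = 0.0843 without and 0.0476 with the block (edgeR). The other 5 subunits, ARPC2, ARPC3, ARPC4, ARPC5 and ARPC5L, had log2 fold changes from -0.39 (ARPC5) to 0.30 (ARPC5L), and none of them passed either fit.

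NCKAP1 (NAP1) is a core subunit of the WAVE complex, which carries signals from RAC1 to Arp2/3. It had the largest absolute log2 fold change on the list, with 247, 331 and 286 CPM in shControl and 40.5, 42.4 and 118 CPM in shNXN cells. The groups were far apart on days 7 and 9 and closer on day 11. The mean went from 288 ± 41.8 to 66.9 ± 44.1 CPM (SD, n = 3). The log2 fold change was -2.11 (adjusted p = 0.0496, edgeR; standard error 0.43). This call was lost when any one library other than the shNXN library of day 11 was left out, with adjusted p values from 0.0675 (without the shControl library of day 9) to 0.225 (without the shNXN library of day 7) and log2 fold changes from -2.20 to -1.84.

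The partners of NCKAP1 were not lowered to the same extent. BRK1, the smallest WAVE subunit, had 139.7, 165 and 150.3 CPM against 156, 165 and 153 CPM, and its log2 fold change was 0.06 (adjusted p = 0.747, edgeR). WASF1 (WAVE1) fell by 0.87 on the log2 scale with the block (adjusted p = 0.0306) but its log2 fold change of -0.85 did not pass without it (adjusted p = 0.0633, edgeR), and its paralog WASF2 (WAVE2) had a log2 fold change of 0.30 that passed neither fit. ABI1, another WAVE subunit, and WASL (N-WASP), which acts downstream of CDC42, had log2 fold changes of -0.38 and -0.46 and also passed neither.

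Among the severing proteins, CFL2, the muscle-type cofilin, was called lower. It had 45.3, 29.1 and 56.4 CPM in shControl and 12.6, 13.1 and 18.8 CPM in shNXN cells. The log2 fold change was -1.56 (adjusted p = 0.0473, edgeR; standard error 0.29). The highest shNXN library was below the lowest shControl library. This call was lost without the shControl library of day 7 (adjusted p = 0.133) or day 11 (0.0784) and without the shNXN library of day 7 (0.225) or day 9 (0.171), with log2 fold changes from -1.52 to -1.27 in those fits. CFL1, the cofilin of non-muscle cells and the far more abundant one, was on the other side, with 648, 632 and 722 CPM in shControl and 840.3, 946 and 863 CPM in shNXN cells. Its log2 fold change of 0.40 (standard error 0.12) passed with the block (adjusted p = 0.0488) and not without it (adjusted p = 0.0814, edgeR). DSTN (destrin), the third member of this family, fell by 0.94 with the block (adjusted p = 0.0242), and without it was at -0.97 (adjusted p = 0.0796, edgeR). In FPKM, CFL2 made up 3.31%, 2.76% and 3.61% of the sum of CFL1, CFL2 and DSTN in shControl cells on days 7, 9 and 11. In shNXN cells it made up 0.507%, 0.430% and 1.71%. The transcript lengths implied for CFL2 and DSTN differed between libraries, as given further on, so the sizes of these shares are uncertain. The gelsolin relatives GSN, VIL1 (villin, a protein of microvilli) and SVIL had log2 fold changes of 0.45, 0.21 and 0.43, and none passed either fit.

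Of the 4 monomer-binding genes none passed either fit. TMSB10, a beta-thymosin, had 647, 619 and 869 CPM in shControl and 836, 1028 and 979 CPM in shNXN cells (log2 fold change 0.41, adjusted p = 0.143, edgeR), and the groups overlapped. TMSB4X, PFN1 and PFN2 had log2 fold changes of -0.34, 0.31 and -0.37. The 4 tropomyosins, which coat filaments along their length, had log2 fold changes of 0.00 to 0.62, and none passed either fit. TPM3, the most abundant of them by FPKM, had 546, 442 and 872 CPM in shControl and 645, 704 and 823 CPM in shNXN cells (log2 fold change 0.22, adjusted p = 0.551, edgeR). TPM2 had the largest value at 0.62 (adjusted p = 0.162, edgeR) but the lowest level, with 3.15, 4.61 and 4.6 CPM against 7.67, 5.64 and 5.74 CPM.

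The cross-linkers were all on the higher side without passing. ACTN4 (alpha-actinin 4) had 880.0, 879 and 975 CPM in shControl and 1172, 1288 and 1121 CPM in shNXN cells, without overlap, a log2 fold change of 0.39 (adjusted p = 0.0853 without and 0.0545 with the block, edgeR). FLNA (filamin A) had 644, 625 and 1548 CPM against 991, 1124 and 1645 CPM, a log2 fold change of 0.42 (adjusted p = 0.46, edgeR). In FLNA the day 11 libraries of both groups were higher than all the others. ACTN1 was at 0.20.

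In the myosin II group MYL6, an essential light chain, had 207, 227 and 175 CPM in shControl and 281, 290.3 and 225 CPM in shNXN cells. The day 11 library was the lowest in each group, and the log2 fold change of 0.39 passed with the block (adjusted p = 0.0419) but not without it (adjusted p = 0.142, edgeR). MYL12A, a regulatory light chain, had the lowest value at -0.93 (standard error 0.38), with 173, 285 and 223 CPM against 91.6, 72.0 and 193 CPM, and passed neither fit (adjusted p = 0.141 without and 0.0764 with the block, edgeR). Another regulatory light chain, MYL9, and the heavy chains MYH9 and MYH10 had log2 fold changes of 0.39, 0.29 and 0.16 and passed neither.

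The membrane linkers ezrin (EZR), radixin (RDX) and moesin (MSN) tie filaments to the plasma membrane. RDX had 85.5, 85.8 and 142 CPM in shControl and 34.3, 30.9 and 76.9 CPM in shNXN cells, without overlap. Its log2 fold change was -1.14 (standard error 0.39), with adjusted p = 0.106 without and 0.0154 with the block (edgeR). EZR, the most abundant of the 3 by FPKM, had 222, 181 and 298 CPM against 264, 298 and 308 CPM (log2 fold change 0.31, adjusted p = 0.289, edgeR), and MSN was at 0.17. RDX supplied 18.5%, 38.0% and 17.2% of the FPKM of the 3 genes in shControl cells and 11.1%, 6.89% and 18.0% in shNXN cells. This share overlapped between the groups. In FPKM, RDX itself overlapped too, at 31.45, 81.8 and 44.8 in shControl and 22.2, 14.8 and 46.4 in shNXN cells. From day 7 to day 9 its FPKM rose in shControl cells while its CPM hardly moved, so the 38.0% is uncertain. The transcript lengths implied for RDX are given further on.

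Of the formins, DIAPH1 (mDia1) had 254, 272 and 286 CPM in shControl and 251, 268 and 322 CPM in shNXN cells, a log2 fold change of 0.05 (adjusted p = 0.82, edgeR). DIAPH3 (mDia2) was lower, with 18.0, 14.5 and 20.7 CPM against 11.3, 9.50 and 13.8 CPM, and its log2 fold change of -0.62 passed only with the block (adjusted p = 0.125 without and 0.0434 with it, edgeR).

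What the lower genes shared, and what was not used to choose them, was the base composition of their transcripts. Over the 55 genes the log2 fold change and the GC content of the longest transcript had a Spearman correlation of 0.826, and over the 12740 tested features with a known transcript it was 0.789. The points share the same 6 libraries and are not independent, so that the correlation is a description. Of the 22 genes under 45% GC, 19 had a negative log2 fold change, with a median of -0.87. Of the 10 genes from 45% to 50% GC 1 was negative (WASF1), with a median of 0.14, and of the 23 genes at or above 50% GC 2 were negative (TMSB4X and ARPC4), with a median of 0.32. These GC limits were set after the values were seen. Within a day, the correlation was 0.832, 0.710 and 0.708 on days 7, 9 and 11.

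In several gene families the members stood in the order of their GC content. CFL2 (37.7% GC) and DSTN (42.3%) were lower and CFL1 (57.7%) was higher. RDX (38.6%) was lower while EZR (51.2%) and MSN (50.2%) were not, and MYL12A (44.9%) stood below MYL9 (60.5%). DIAPH3 (40.6%) stood below DIAPH1 (50.9%), and WASF1 (46.4%) below WASF2 (53.3%). Of the capping protein subunits CAPZA1 (42.4%) and CAPZA2 (40.7%) were lower and CAPZB (53.0%) was not. Other families ran against this order: ACTB (55.1%, log2 fold change 0.43) stood above ACTG1 (57.8%, 0.26). TPM3 (44.7%, 0.22) stood above TPM1 (45.9%, 0.00) and TPM4 (48.5%, 0.11).

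When each library's trend along GC content was removed, the correlation over the 55 genes was -0.07, and the median log2 fold change of the 22 genes under 45% GC was 0.05. The correction takes out all group differences that run along GC content, biological ones included. Values near 0 for this correlation and this median were therefore largely built in, and they are no test. After it, 0 of the 54 genes other than CAPZA2 were called without the block (0.0355% of all tested features were), and 1 with the block, ARPC3, on the higher side (0.59% of features were called in either direction). The log2 fold change became -0.93 for CAPZA1 (adjusted p = 0.245), -1.25 for NCKAP1 (adjusted p = 0.102) and -0.75 for WASF1 (adjusted p = 0.105), all from edgeR, and -1.32 for CAPZA2. It became -0.37 for CFL2, -0.37 for DSTN, -0.14 for RDX and -0.03 for ACTR2, and 0.24, 0.11, 0.03 and 0.14 for ARPC1A, ARPC1B, CFL1 and MYL6, which were higher with the block, and the signs of ACTR3 (0.17), DIAPH3 (0.20) and CAPZB (-0.06) turned.

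**Figure D3:**
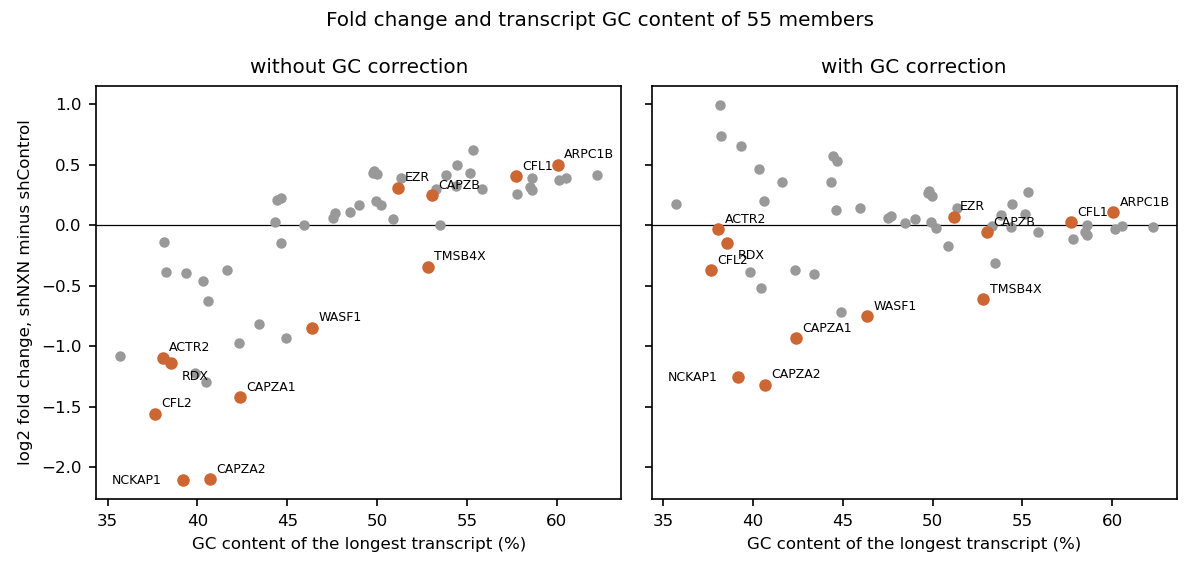
log2 fold change, shNXN minus shControl, of the 55 genes against the GC content of the longest transcript in percent, from edgeR without (left) and with (right) the correction for each library's GC trend; genes discussed in the text are coloured and named. On the left most genes under 45% GC lie below 0, and on the right CAPZA2, NCKAP1 and CAPZA1 are the lowest at -1.32, -1.25 and -0.93.

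Each day held 1 library per group, so that differences within a day have no replicate. The log2 difference between shNXN and shControl had the same sign on all 3 days for 43 of the 55 genes, negative for 18 and positive for 25. It was smallest in size on day 11 for 35 genes (63.6%, beside 48.0% of tested features). Of the 12 genes other than CAPZA2 that were lower with the block, the same held for all but CFL2 and DSTN. It also held for CAPZA2. No matching share was counted over features lower with the block, nor over all features for the 43 genes, so both counts are descriptions. For CAPZA1 the log2 difference was -1.72, -2.34 and -0.87 on days 7, 9 and 11, and for CAPZA2 -2.27, -2.24 and -1.84. For NCKAP1 it was -2.59, -2.95 and -1.28. CFL2 and DSTN had their smallest differences on day 9 (-1.13 and -0.52).

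**Figure D4:**
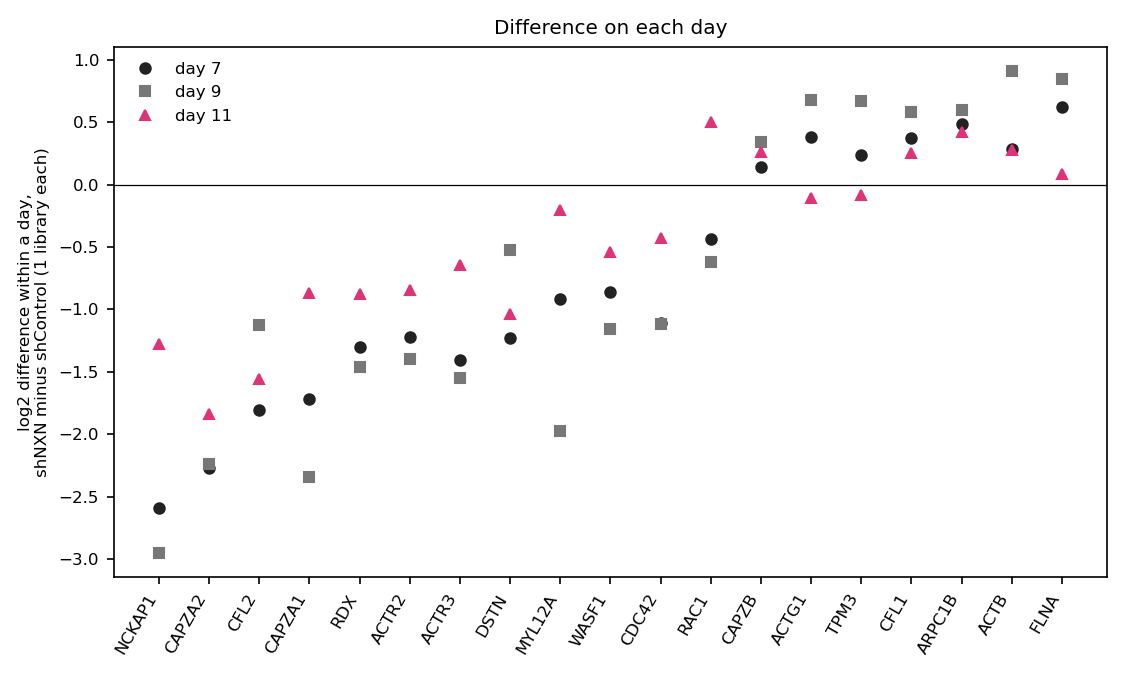
log2 difference between the shNXN and shControl library of days 7, 9 and 11 for selected genes on log2(CPM + 0.5); each point is a difference of 1 library from 1 library. For most of the lower genes the day 11 triangle lies nearest to 0, as in NCKAP1 (-1.28 on day 11, -2.95 on day 9), and for RAC1, ACTG1 and TPM3 it lies on the other side of 0.

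The day itself was compared as well, as day 11 minus the mean of days 7 and 9 with the group as a second term. The rule for the list does not name this contrast, but the genes were chosen with earlier results of these data known. The fit took the day difference as equal in both groups, which 1 library per group and day cannot test. With edgeR 0 of the 55 genes and 0 of the 14071 features passed (0.0% called), and the lowest adjusted p on the list was 0.0635, for RDX (log2 difference 0.99) and VIL1 (-0.66). At an unadjusted p under 0.05, 23 of the 55 genes were higher on day 11 (41.8%, beside 17.4% of features) and 3 were lower (VIL1, MYL6 and CAPG, beside 12.1% of features). The median log2 difference of the 55 genes was 0.35, that of all features 0.08. Over the 55 genes the day difference and GC content had a Spearman correlation of -0.387, a description. Day 11 is 1 library per group, so that the day cannot be told apart from those libraries. CAPZA1 had the largest at 1.14 (standard error 0.29, adjusted p = 0.0908, edgeR), and among the next were RDX at 0.99, FLNA at 0.97 and TMSB4X at 0.96, and CAPZA2 was at 0.58. DESeq2 called 15 of the 55, of which 14 were higher and 1 lower on day 11, and 14.1% of all features. With edgeR 6 were called without the shControl library of day 9 (2.56% of all features), 14 without the shControl library of day 11 (15.6% of all features) and 7 without the shNXN library of day 11 (6.78% of all features), and 0 without any one of the other libraries.

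The FPKM table ranked the fold changes of the genes much as the counts did (Spearman correlation 0.817 over the 55 genes, a description), but the sizes differed. On log2(FPKM + 1), where limma gave a median log2 fold change of 0.13 for all features, NCKAP1 was at -3.09 (adjusted p = 0.0454), CFL2 at -1.77 (adjusted p = 0.071), CAPZA1 at -1.30 (adjusted p = 0.214) and DSTN at -0.35 (adjusted p = 0.292). The sign was opposite for 4 genes, PFN2 (-0.37 in counts, 0.53 in FPKM), RAC1 (-0.15 and 0.47), ARPC5 (-0.39 and 0.18) and ARPC3 (-0.14 and 0.15), none of which passed either edgeR fit or limma's test.

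CPM before TMM scaling divided by FPKM gives the transcript length, in kilobases, that the deposited values imply for each library. For MSN it was 3.64 to 3.70 in all 6 libraries, and for CAPZB 1.13 to 1.32. For NCKAP1 it was 4.0, 3.32 and 4.31 in shControl and 8.93, 9.91 and 5.26 in shNXN cells, for PFN2 1.48, 1.34 and 1.44 against 0.672, 0.701 and 0.984, for DSTN 1.15, 0.979 and 1.12 against 0.659, 0.594 and 0.976, and for CAPZA1 2.21, 1.69 and 2.53 against 1.96, 2.38 and 1.08. For CAPZA2 it was 1.04, 0.910 and 1.26 in shControl and 0.930, 1.28 and 0.677 in shNXN cells. The 2 groups did not overlap in implied length for NCKAP1, PFN2 and DSTN, and overlapped for CAPZA1 and CAPZA2. The implied length was shorter in every shNXN library than in any shControl library for 7 of the 55 genes and longer for 3. The share over all features was not counted, so these counts do not show a trait of the listed genes. Whether other isoforms were used or reads were shared out differently among them was not tested. Levels of genes whose implied length differed between libraries are less certain on both scales.

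**Figure D5:**
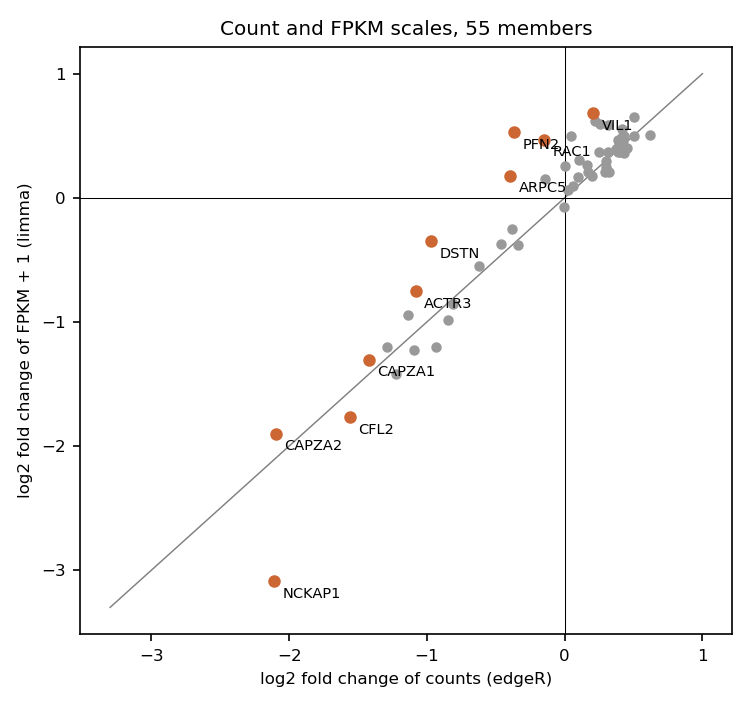
log2 fold change, shNXN minus shControl, of the 55 genes on the count scale (edgeR, horizontal) and on log2(FPKM + 1) (limma, vertical), with the line of equal values. NCKAP1 lies farthest below the line (-2.11 and -3.09), and PFN2, RAC1 and ARPC5 are among the 4 genes with opposite signs.

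Genes of the same pathway that were not on the list were counted for comparison, from a list of 103 that was written with results of these data known. Of these, 102 had a row and 91 were tested. Without the block 1 was called, ACTR6, lower in shNXN cells (3.21% of all features were lower). ACTR6 is a nuclear actin-related protein of a chromatin remodeling complex and does not build filaments. It had 20.4, 12.9 and 16.6 CPM in shControl and 1.46, 1.47 and 2.51 CPM in shNXN cells. The log2 fold change was -3.19 (adjusted p = 0.0378, edgeR; standard error 0.33), but -1.19 on log2(FPKM + 1), where the call was lost (adjusted p = 0.149, limma). The implied length of ACTR6 was 1.22, 1.09 and 1.20 kilobases in shControl and 0.171, 0.807 and 0.266 kilobases in shNXN cells, without overlap, so that its level is uncertain. With the block 17 of the 91 were lower (18.7%, beside 17.0% of all features) and 9 higher (9.89%, beside 6.28%), and their median log2 fold change without it was 0.19.

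Partners of capping protein were on both sides. MTPN (myotrophin, V-1), which holds capping protein away from filament ends, was at 144, 119 and 190.3 CPM against 68.3, 56.8 and 115 CPM, a log2 fold change of -0.92 that passed with the block (adjusted p = 0.0156) and not without it (adjusted p = 0.0955, edgeR). For MTPN the difference was -0.13 on log2(FPKM + 1) (adjusted p = 0.618, limma) and 0.06 after the GC correction (adjusted p = 0.901, edgeR), and its implied length was 2.29 to 2.48 kilobases in shControl and 1.10 to 1.95 kilobases in shNXN cells. ACTR1A, the actin-related protein of the dynactin filament that capping protein caps, was at 171, 171 and 184 CPM against 202, 218 and 208 CPM and passed neither fit (log2 fold change 0.26). Of the 17 tested genes of capping partners and dynactin, 5 were lower (29.4%, beside 17.0% of all features) and 2 higher (11.8%, beside 6.28%) with the block, a description of few genes. Among factors that turn filaments over, FLII, a gelsolin relative, had a log2 fold change of 0.55, with adjusted p = 0.0704 without and 0.0245 with the block (edgeR), and one of 0.15 after the GC correction (adjusted p = 0.613, edgeR).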

How the data were processed

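RNA of Hep-3B cells was sequenced in 6 libraries, 3 shControl and 3 shNXN, 1 per group and day (7, 9 and 11). For each feature and library the authors deposited an estimated count and an FPKM value, which is scaled to transcript length and library size, from SMARTer mRNA libraries. The aligner, counting program and annotation are not given in the sources used here. The submitters' processing notes name the mouse builds GRCm38 and mm10, although the identifiers are human Ensembl genes. There were 0 columns without a sample. The name table gave symbols to 19433 of 20314 Ensembl identifiers. Where reads match several transcripts, an estimated count depends on how they were shared out, so paralogs and isoforms are uncertain. Of 134 pseudogene symbols of 30 members in the name table, 0 had a row.

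Counts were rounded and fitted with edgeR 4.0.16 (R 4.3.3; TMM, filterByExpr, quasi-likelihood test), with Benjamini-Hochberg adjustment over all 14071 tested features and a threshold of 0.05. The standard error was the log2 fold change over the square root of F. The replicate block was the day, which the labels give to both groups. Deviations from the group means of same-day libraries correlated at 0.359, 0.337 and 0.482. Alternatives were DESeq2 1.42.0, RLE factors, library size only, other count filters, limma 3.58.1 on log2(FPKM + 1) and log2(FPKM + 0.1), a natural spline with 5 degrees of freedom on GC content per library as an offset, and each library left out in turn. GC content was that of the longest GENCODE 29 transcript. Replicates differed by more than sampling noise (chi-square per gene 20.1 to 77.8). Exact permutation of 3 against 3 libraries cannot give a p under 0.1 and was not used. The fits were tested on simulated data.

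The members and gene lists were chosen with earlier results of these data known. Values by library are given for CAPZA1, CAPZA2, CAPZB, ACTB, ACTG1, the genes called without the block and, in each role, the gene with the highest mean FPKM and that with the largest absolute log2 fold change. Of the other pathway genes, those called without the block and ACTR6, FLII, MTPN and ACTR1A are named. One role group is not reported by role here. Scripts ran under Python 3.11.15.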

Additional observations from a re-analysis of the deposited data

Results flagged for a closer look

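For several of the genes the difference between shNXN and shControl on days 7 and 9 had the opposite sign to that on day 11. Of these, 4 are given here, and ARPC2 and TPM1 are among the others. The values are log2 differences of 1 library from 1 library, so the difference between days was not tested. RAC1, the GTPase upstream of the WAVE complex, was at -0.4351 on day 7, -0.621 on day 9 and 0.5042 on day 11. ACTG1, gamma-actin, was at 0.3851, 0.6799 and -0.1098 on these days, and TPM3, a tropomyosin, at 0.2401, 0.6705 and -0.0835. The formin DIAPH1 was at -0.0199, -0.0232 and 0.1676.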

How the results depend on the processing

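Over 54 genes named in the text and 16 alternatives, 796 of 864 log2 fold changes had the sign of the fit without the block, and 29 genes had it in every alternative. The sign turned with the GC correction for ABI1 (0.7364), ACTG1 (-0.1141), ACTR1A (-0.0574), ACTR3 (0.1746), ARPC3 (0.9955), ARPC5 (0.656), ARPC5L (-0.0592), CAPG (-0.031), CAPZB (-0.0567), DIAPH1 (-0.1725), DIAPH3 (0.2043), FLNA (-0.017), MSN (-0.0211), MTPN (0.056), MYH9 (-0.0841), MYL9 (-0.004), PFN1 (-0.0545), PFN2 (0.3585), RAC1 (0.1225), WASF2 (-0.0078) and WASL (0.4667). With the replicate block and the GC correction together it turned for ABI1 (0.7235), ACTG1 (-0.0576), ACTR1A (-0.0575), ACTR3 (0.1594), ARPC3 (0.9751), ARPC5 (0.7289), ARPC5L (-0.047), CAPG (-0.0277), CAPZB (-0.0581), DIAPH1 (-0.182), DIAPH3 (0.2048), MTPN (0.0579), MYH9 (-0.0846), PFN1 (-0.0741), PFN2 (0.3505), RAC1 (0.1197), WASF2 (-0.0028) and WASL (0.444). It turned for ARPC3 (0.1517), ARPC5 (0.178), PFN2 (0.5302) and RAC1 (0.4671) on log2(FPKM + 1), for ARPC3 (0.1524), ARPC5 (0.1818), PFN2 (0.5343) and RAC1 (0.4677) on log2(FPKM + 0.1), and for TPM1 (-0.0045) with at least 10 counts in every library. ARPC4, slightly below 0 without the block, was at 0.0218 with DESeq2 and RLE factors, 0.0047 with library size only, 0.0324 without a filter and 0.0044 with the replicate block. With one library left out it turned in at least 1 fit for ARPC2 (from -0.1489 to 0.1875), ARPC4 (from -0.0753 to 0.1593), ARPC5 (from -0.712 to 0.0872), DIAPH1 (from -0.0622 to 0.1451), MSN (from -0.0048 to 0.5292), RAC1 (from -0.4251 to 0.0024), TPM1 (from -0.1903 to 0.2893) and TPM4 (from -0.126 to 0.4261). The cause was not tested.

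In place of 2 genes other than CAPZA2, DESeq2 called 16, the replicate block 17, limma 1 on log2(FPKM + 1) and 0 on log2(FPKM + 0.1), the GC correction 0, and the block with it 1. With one library left out it was 0 to 13. Over all features 477 were called, against 3311 by DESeq2, 818 without a filter, 929 when scaled by library size alone, 826 by RLE factors, 3272 with the block, 287 and 66 with limma, 5 with the GC correction, 83 with it and the block, and 0 to 3706 with one library left out. In the comparison of day 11 with days 7 and 9, which called 0 genes, DESeq2 called 15, library size only 2, no filter 12, the GC correction 2, and fits without one library 0 to 14. No blocked fit was run there, since the day is the contrast. Calls near the threshold with 3 libraries a group limit what these counts can show.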
